A study of Mus musculus with 37 samples.

Results

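Zfp352, Spz1, Tmem92, Arg2 and Sp110 are 5 single genes, chosen by symbol, that have been grouped with the genes of the mouse 2-cell embryo but lie outside the large multicopy families of that stage. All 5 were found among the 55401 genes of the table of early stages. Control females carried Bap1 flox/flox, and knockout females carried Gdf9-iCre, Bap1 flox/flox, in which Cre under the Gdf9 promoter, active in oocytes, deletes Bap1 in the growing oocyte. Total RNA was sequenced from fully grown oocytes (FGO), MII eggs (MII), and late 1-cell (L1C), early 2-cell (E2C) and late 2-cell (L2C) embryos, with 2 control and 3 knockout libraries per stage, except that E2C had 3 of each. Embryos came from these eggs and B6 sperm and were cultured in KSOM, so knockout embryos came from Bap1-deleted eggs and received an intact paternal allele. A further 11 poly(A) libraries came from the epiblast, visceral endoderm and extra-embryonic ectoderm of control and maternal knockout embryos at embryonic day 6.5. The sources used here give neither the number of oocytes or embryos per library nor whether libraries came from separate animals or cultures, so p-values measure only the spread between these samples.

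The fertilized mouse egg starts with RNA stored by the oocyte, which is cleared while the embryonic genome is switched on, in a first wave in the late zygote and a larger one in the 2-cell embryo. A transient group of genes is transcribed at that stage and silenced again soon after, and Zfp352, which encodes a zinc finger protein, is among its best known markers. BAP1 is the catalytic subunit of the Polycomb repressive deubiquitinase, which takes ubiquitin off histone H2A and so opposes the Polycomb complex that places it.

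Each value is an FPKM (fragments per kilobase of transcript, relative to the size of the library), so levels may be compared between genes per unit of length. The number of reads behind a value is not kept, and no counting error can be given. Across the 26 early libraries FPKM summed to between 300668 and 430784, and between 10353 and 11942 genes reached 1 FPKM. Bap1 had 16.3 to 29.9 FPKM in the control libraries and 3.76 to 11.7 in the knockout libraries, without overlap at any stage, and was called lower at all 5 stages (limma), though in FGO not without control replicate 2 (adjusted p = 0.0565) or with the replicate block (adjusted p = 0.0745). Oocyte markers were present in all libraries, while 12 cumulus and granulosa markers summed to at most 11.9 FPKM and 6 sperm markers to at most 6.71 FPKM. The cumulus and granulosa sum was higher in control (4.91 to 11.9 FPKM) than in knockout libraries (1.84 to 4.72 FPKM), with 1 or 2 of the 12 at 1 FPKM or more by group mean and Lhcgr listed at 0 in every library. Its part in the results was not tested. Among the E2C libraries, knockout replicate 2 stood apart: the median log2(FPKM + 1) of 38 other 2-cell genes was 2.34 in it, 3.45 and 3.61 in the other knockout libraries, and 3.88 to 4.12 in the controls. Early 2-cell calls that rest on it are given with and without it.

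The sequence before the start of Zfp352 is shown because it consists largely of one repeated stretch, and that of Sp110 because its more distant start carries some of the same letters. The 250 bases upstream of each start are from RefSeq on GRCm38.p6, which had 4 entries for 3 of the genes. Capitals mark GGATTA on either strand (TAATCC on the strand shown) and TATAAGG. Both motifs were chosen after the sequences were seen.
Zfp352, chr4:90218570-90218819, plus strand: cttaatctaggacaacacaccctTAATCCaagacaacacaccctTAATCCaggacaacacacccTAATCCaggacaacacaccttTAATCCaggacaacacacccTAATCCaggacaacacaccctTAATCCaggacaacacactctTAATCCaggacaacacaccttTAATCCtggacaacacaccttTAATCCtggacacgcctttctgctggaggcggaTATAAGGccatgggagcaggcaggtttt
Sp110, start 1, chr1:85603892-85604141, minus strand: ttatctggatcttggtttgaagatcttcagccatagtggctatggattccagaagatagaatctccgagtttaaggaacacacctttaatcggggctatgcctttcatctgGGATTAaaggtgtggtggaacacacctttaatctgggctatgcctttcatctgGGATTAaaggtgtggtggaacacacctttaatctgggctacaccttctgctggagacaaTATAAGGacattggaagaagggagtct
Sp110, start 2, chr1:85598811-85599060, minus strand: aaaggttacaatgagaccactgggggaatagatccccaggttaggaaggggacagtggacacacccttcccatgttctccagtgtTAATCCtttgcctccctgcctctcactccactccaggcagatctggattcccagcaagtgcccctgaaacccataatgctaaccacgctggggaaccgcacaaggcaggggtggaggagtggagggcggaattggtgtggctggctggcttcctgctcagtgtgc

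GGATTA occurred 9 times before Zfp352, and 0.00304% of 32851 promoter windows of the same length held at least 9 matches. That share counts the Zfp352 window itself, and the motif was chosen after this sequence was seen, so it is not an independent background. GGATTA occurred 2 times before start 1 of Sp110, as in 0.295% of windows at the least, and once before start 2, as in 6.25%. It did not occur in the 250 bases before Spz1 (chr13:92576233-92576482, minus strand). TATAAGG lay before Zfp352 and before start 1 of Sp110 and was present in 1.91% of windows. TATAAA, present in 12.4% of windows, was in none of the 4. The longest run that Zfp352 and start 1 of Sp110 shared was aacacacctttaatc, of 15 bases, present on either strand in 23 of the 32851 windows. Start 2 of Sp110 lies 7 bases from the GENCODE start of the gene, and start 1 lies 5074 bases upstream of it. These matches describe letters in a window and not binding sites.

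In GENCODE M21 (GRCm38), whose gene versions matched the table for all 5, Zfp352 (ENSMUSG00000070902.5) lies on the plus strand of chromosome 4 from 90218820 to 90225702. Spz1 (ENSMUSG00000046957.5) is a gene of 1 exon on the minus strand of chromosome 13 from 92574636 to 92576172. Tmem92 (ENSMUSG00000075610.9) lies on the minus strand of chromosome 11 from 94777217 to 94782703. Arg2 (ENSMUSG00000021125.6) lies on the plus strand of chromosome 12 from 79130777 to 79156301. Sp110 (ENSMUSG00000070034.13) lies on the minus strand of chromosome 1 from 85576899 to 85598817. Of the exonic words of 50 bases, the share also found in another annotated gene was 0% for Spz1, 1.93% for Tmem92, 7.09% for Zfp352, 21.2% for Arg2 and 42.3% for Sp110. The shared words of Arg2 came mainly from Vti1b, which overlaps it on the other strand, and those of Sp110 were spread over 136 genes, so the values of these 2 genes are less certain than those of the others.

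Zfp352, Spz1 and Tmem92 rose at the early 2-cell stage, whereas Arg2 and Sp110 were already abundant in oocytes and fell between the late 1-cell and early 2-cell stages. The levels of Arg2 and Sp110 therefore did not peak at the 2-cell stages. Stored and newly made RNA cannot be told apart in these values, so transcription of Arg2 and Sp110 at those stages was not tested. In the 15 libraries of oocytes, eggs and late 1-cell embryos, Zfp352 did not exceed 0.142 FPKM and was listed at 0 in 5. Spz1, a leucine zipper transcription factor first described in the testis, did not exceed 0.436 FPKM there and was listed at 0 in 9. Tmem92, which encodes a predicted membrane protein, lay between 0.614 and 1.83 FPKM. In the same 15 libraries Arg2, the mitochondrial arginase that splits arginine into ornithine and urea, had 75.4 to 104 FPKM. Sp110, a nuclear body protein of the SP100 family, had 91.0 to 199 FPKM.

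**Figure D1:**
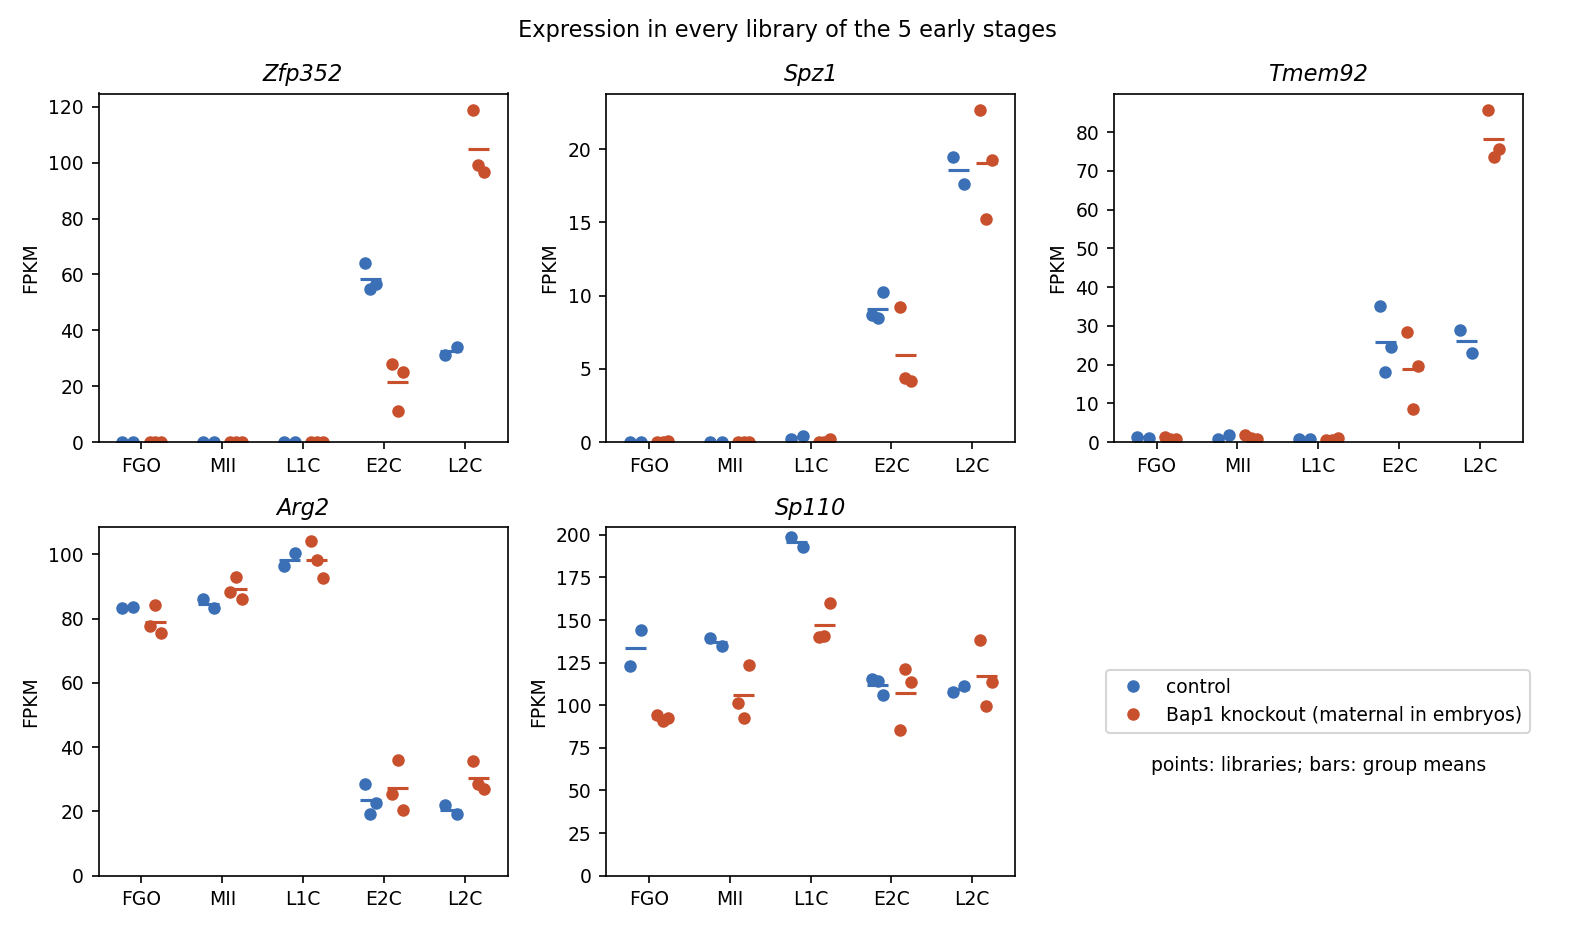
FPKM of the 5 genes (vertical axis, linear, one panel per gene) in every library of the 5 early stages (horizontal axis), with points for libraries and bars for group means of control (blue) and knockout (red). Zfp352, Spz1 and Tmem92 are near 0 until E2C, while Arg2 and Sp110 start at 75.4 FPKM or more.

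Of the knockout effects, the decrease and later increase of Zfp352 was the largest among the 5 genes on the log2 scale. In early 2-cell embryos the 3 control libraries had 64.0, 54.9 and 56.4 FPKM of Zfp352, and the 3 knockout libraries had 28.0, 11.2 and 25.0 FPKM. Every knockout library was below every control library, and the knockout mean was 36.6% of the control mean. The difference of log2(FPKM + 1) was -1.50 ± 0.29 (SE, n = 3 and 3; limma, adjusted p = 0.0177). Zfp352 was the one called among the 5 genes, all of which passed the filter in E2C, where 10.1% of all genes tested were called, 4.25% higher and 5.87% lower. In 16.3% of the genes tested, all knockout libraries lay below all controls. Without knockout replicate 2, the lowest library, the difference was -1.11 with an adjusted p of 0.00596, and without control replicate 1 the call was lost (-1.44, adjusted p = 0.0704), as it was with no filter on low genes (adjusted p = 0.11).

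In late 2-cell embryos the order was the opposite. The 2 control libraries had 31.2 and 34.1 FPKM of Zfp352, and the 3 knockout libraries had 119, 99.2 and 96.5 FPKM, again without overlap. The difference was 1.65 ± 0.12 (SE, n = 2 and 3; limma, adjusted p = 0.00014), and the knockout mean was 3.21 times the control mean. Among the groups, knockout L2C was highest at 105 ± 12.2 FPKM (SD, n = 3), followed by control E2C at 58.4 ± 4.85 (n = 3), control L2C at 32.7 ± 2.01 (n = 2) and knockout E2C at 21.4 ± 8.98 (n = 3), and no neighbours in this order overlapped. Zfp352 ranked 380 by mean FPKM among all genes in knockout L2C, against 1620 in control L2C and 849 in control E2C.

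The change of the knockout effect between the stages was tested directly. For Zfp352 the effect in L2C exceeded that in E2C by 3.15 ± 0.38 on the log2 scale (limma, 11 libraries, adjusted p = 0.0005; 2.76 without E2C knockout replicate 2, adjusted p = 2.06e-05), where 16.7% of genes were called and 8.81% in this direction. Within controls Zfp352 fell from E2C to L2C by 0.82 ± 0.28 on the log2 scale (adjusted p = 0.0269), and within knockout embryos it rose by 2.33 ± 0.25 (adjusted p = 1.43e-05). The decrease in controls was not called without E2C control replicate 1 (adjusted p = 0.0708) or without either L2C control library (adjusted p = 0.123 and 0.0772), nor without the filter (adjusted p = 0.0996). Between L1C and E2C the difference of the knockout effects was -1.45 ± 0.39, with an adjusted p of 0.125, at a background of 0.337% of genes called.

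Tmem92 had a control level in E2C that varied more between libraries, with 35.1, 18.2 and 24.6 FPKM, against 28.3, 8.53 and 19.8 FPKM in the knockout libraries. The groups overlapped, and the difference of -0.54 ± 0.39 was not called (limma, adjusted p = 0.399). Without knockout replicate 2, again the lowest library, it was -0.08. In L2C the 2 controls had 28.9 and 23.1 FPKM and the 3 knockout libraries had 85.7, 73.6 and 75.5 FPKM. Each knockout library was thus above both controls, and Tmem92 was 3.01 times as high by the means (1.56 ± 0.13; adjusted p = 0.000187). The knockout L2C mean of 78.3 ± 6.51 FPKM (SD, n = 3) stood above the other groups, while control L2C (26.03 ± 4.12, n = 2), control E2C (25.96 ± 8.57, n = 3) and knockout E2C (18.9 ± 9.93, n = 3) overlapped one another.

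From E2C to L2C Tmem92 rose in knockout embryos by 2.14 ± 0.34 on the log2 scale (limma, adjusted p = 0.000242), whereas the control value was 0.04 ± 0.37 (adjusted p = 0.931). The difference between the 2 knockout effects was 2.09 ± 0.50 (adjusted p = 0.0148). That call was lost without L2C control replicate 2 (1.94, adjusted p = 0.0697) and without the filter (adjusted p = 0.0736), and the value without E2C knockout replicate 2 was 1.64 (adjusted p = 0.0086).

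Spz1 differed from both in its time course. The E2C controls had 8.65, 8.47 and 10.2 FPKM and the knockout libraries 9.22, 4.40 and 4.17 FPKM, so 1 knockout library lay within the control range and 2 lay below it. The difference was -0.62 ± 0.27 (limma, adjusted p = 0.17), and without knockout replicate 1 it was -0.93 and called (adjusted p = 0.0335). In L2C Spz1 had 19.5 and 17.6 FPKM in controls and 22.7, 15.2 and 19.2 FPKM in knockout libraries, which enclosed the controls. The difference there was 0.02 ± 0.17 (adjusted p = 0.935).

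Unlike Zfp352, Spz1 was higher in L2C than in E2C in both genotypes. It rose by 0.95 ± 0.27 on the log2 scale in controls (limma, adjusted p = 0.00916) and by 1.59 ± 0.24 in knockout embryos (adjusted p = 0.000171). The control rise was not called without L2C control replicate 1 (adjusted p = 0.063). The knockout effects in L2C and E2C differed by 0.64 ± 0.36 (adjusted p = 0.256), and by 0.95 without E2C knockout replicate 1 (adjusted p = 0.0251).

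**Figure D2:**
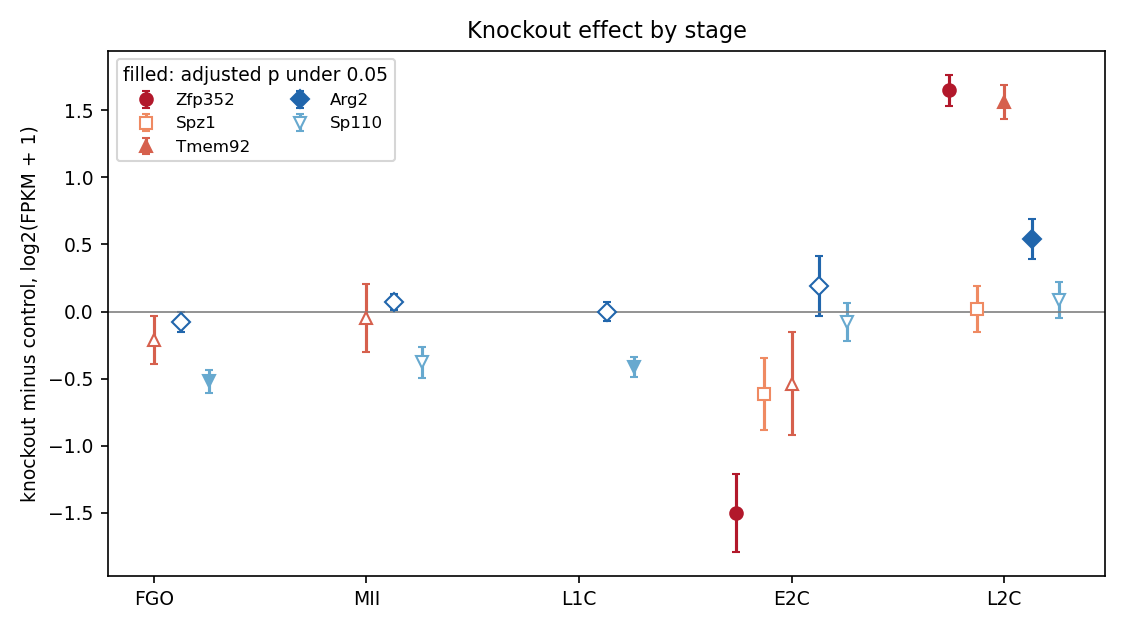
Knockout minus control differences of log2(FPKM + 1) (vertical axis) of the 5 genes at each stage (horizontal axis), with error bars of 1 SE and filled symbols for an adjusted p under 0.05. Zfp352 lies at -1.50 in E2C and at 1.65 in L2C, and Sp110 lies below 0 in FGO, MII and L1C; genes that did not pass the filter at a stage are not drawn.

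Arg2 RNA was abundant in the oocyte and dropped after the late 1-cell stage. Controls had 83.1 and 83.6 FPKM in FGO, 85.9 and 83.4 in MII, and 96.2 and 100 in L1C, and knockout libraries had 77.7, 84.1 and 75.4 FPKM in FGO, 88.2, 93.0 and 86.2 in MII, and 104, 98.2 and 92.5 in L1C. No difference between genotypes was called at these stages, with values of -0.08 ± 0.07 in FGO, 0.07 ± 0.06 in MII and -0.00098 ± 0.07 in L1C (limma, adjusted p = 0.539, 0.468 and 0.995). In E2C the controls had 28.6, 19.3 and 22.5 FPKM and the knockout libraries 25.4, 36.1 and 20.3 FPKM. The E2C control mean was 23.9% of the L1C control mean, and the knockout mean was 27.7% of its own.

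The decrease of Arg2 from L1C to E2C was 2.04 ± 0.20 units of log2 in controls and 1.85 ± 0.18 in knockout embryos, as differences of -2.04 and -1.85 (limma, adjusted p = 1.23e-05 and 1.47e-05). In E2C the genotypes differed by 0.19 ± 0.22 (adjusted p = 0.618), and by -0.026 without knockout replicate 2, the library with the highest Arg2. In L2C the controls had 21.9 and 19.0 FPKM and the knockout libraries 35.8, 28.4 and 27.1 FPKM, without overlap. Arg2 was higher in the knockout L2C embryos by 0.54 ± 0.15, at 1.48 times the control mean (limma, adjusted p = 0.021). Without either control library this was not called (adjusted p = 0.0505 and 0.13), and it was not called without the filter (adjusted p = 0.0867) or without the intensity trend (adjusted p = 0.056).

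Vti1b, a SNARE protein gene that overlaps Arg2 on the opposite strand and shares 17.1% of its exonic words, was examined because of that overlap. Its L2C level was 13.1 ± 0.69 FPKM (SD, n = 2) in controls and 22.4 ± 1.80 (n = 3) in knockout embryos, a difference of 0.73 ± 0.13 (limma, adjusted p = 0.00307). In E2C it was 34.3 ± 1.55 (n = 3) and 47.6 ± 7.17 FPKM (n = 3), a difference of 0.45 ± 0.14 that was not called (adjusted p = 0.0696) but was without knockout replicate 1 (adjusted p = 0.0453). The libraries are stranded, but whether strand was used in counting is not given in the sources used here, so the L2C values of Arg2 and Vti1b cannot be told apart with certainty.

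**Figure D3:**
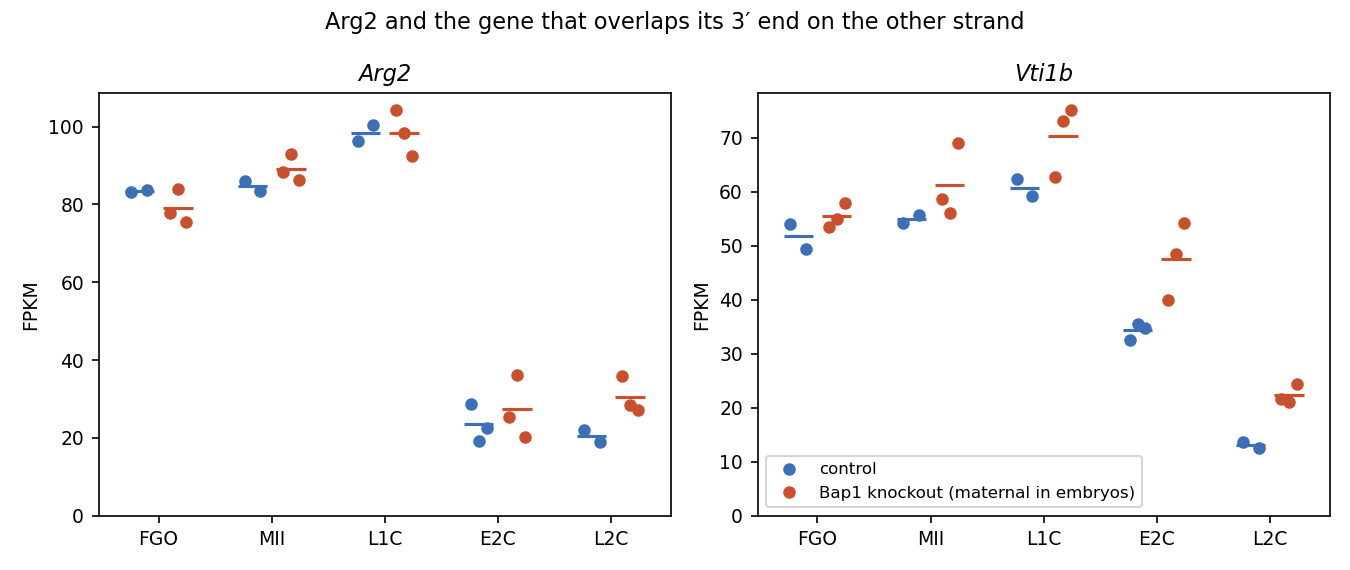
FPKM (vertical axes, linear) of Arg2 and of the overlapping gene Vti1b in every early library by stage (horizontal axes), with points for libraries and bars for means of control (blue) and knockout (red). Both genes are higher in the 3 knockout L2C libraries than in the 2 controls, and both are lower in E2C than in L1C. Vti1b has 60.8 FPKM in control L1C, 34.3 in control E2C and 13.1 in control L2C.

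Sp110 was lower in knockout oocytes and late 1-cell embryos. In FGO the controls had 123 and 144 FPKM and the knockout libraries 94.5, 91.0 and 92.5 FPKM. In MII the values were 139 and 135 FPKM against 101, 92.4 and 124 FPKM. In L1C they were 199 and 193 FPKM against 140, 141 and 160 FPKM. The groups did not overlap at any of these 3 stages, as was so in this direction for 25.9%, 22.9% and 23.3% of all genes tested.

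The knockout mean of Sp110 was 69.4% of the control mean in FGO, 77.3% in MII and 75.0% in L1C. In FGO it fell by 0.52 ± 0.09 on the log2 scale (limma, adjusted p = 0.0178), at a background of 7.00% of genes called lower and 8.34% called in all. In MII the difference was -0.38 ± 0.12 and was not called (adjusted p = 0.0882), where 12.0% of genes were. In L1C it fell by 0.41 ± 0.07 (adjusted p = 0.0128), at a background of 8.71% called lower and 14.9% in all. The FGO call was lost without control replicate 1 or 2 or knockout replicate 2 or 3 (adjusted p = 0.0716, 0.149, 0.0656 and 0.0734), and the L1C call without control replicate 1 or 2 (adjusted p = 0.125 and 0.107), while the MII difference was called without knockout replicate 3 (-0.50, adjusted p = 0.00801). The FGO call was also lost without the filter or with the replicate block (adjusted p = 0.0616 and 0.106), and the L1C call without the filter, in 1 fit of all libraries and without the trend (0.069, 0.0723 and 0.0527). With the block the MII difference was called (-0.50, adjusted p = 0.00763). In the filter, 3 of the 5 genes passed in FGO and in MII and 2 in L1C, and Sp110 was the one called at FGO and L1C.

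From MII to L1C the mean of Sp110 was 1.43 times as high in controls and 1.39 times as high in knockout embryos, a step that was not tested. It then fell from L1C to E2C by 0.80 ± 0.13 on the log2 scale in controls (limma, adjusted p = 0.0004) and by 0.47 ± 0.12 in knockout embryos (adjusted p = 0.00664). The knockout decrease was not called after centring libraries on their medians (-0.21, adjusted p = 0.181). In E2C the controls had 115, 114 and 106 FPKM and the knockout libraries 85.8, 121 and 114 FPKM, and in L2C the values were 108 and 111 FPKM against 138, 99.5 and 114 FPKM. The knockout libraries spanned the control range at both stages, with differences of -0.08 ± 0.14 (adjusted p = 0.758) and 0.09 ± 0.13 (adjusted p = 0.642). The first of these was 0.03 after scaling to TPM. The knockout effect in E2C minus that in L1C was 0.34 ± 0.18 (adjusted p = 0.418).

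Gm16026, the gene model with which Sp110 shares most of its words (26.7%), had a different course. It rose in controls from 46.3 ± 10.2 FPKM (SD, n = 3) in E2C to 204 ± 0.24 (n = 2) in L2C. Its knockout values were lower in E2C (20.5 ± 5.60, n = 3) and in L2C (158 ± 19.5, n = 3), with limma differences of -1.15 and -0.38 (adjusted p = 0.0198 and 0.0285). The E2C call was lost without control replicate 1 or 2 or the filter (adjusted p = 0.0791, 0.0672 and 0.109). The L2C call was lost without any L2C library other than knockout replicate 1 (adjusted p = 0.0675 to 0.111), and under TPM, median centring, no filter, 1 fit of all libraries, no trend and the replicate block (0.172, 0.0599, 0.117, 0.16, 0.109 and 0.0876). In MII the difference was -0.72 (adjusted p = 0.0193), not called without either control (0.106 and 0.166) or without the filter (0.0828). In FGO and L1C, where Sp110 was lower in the knockout, its differences were -0.08 and -0.11 (adjusted p = 0.823 and 0.525). Other sharing genes differed from it. Gm15753 (6.83% of the words) had control and knockout means of 6.89 and 5.05 FPKM in FGO, and 8.12 and 5.62 in L1C. C130026I21Rik (4.38%) had 3.95 and 3.44 FPKM in FGO, and 2.72 and 3.15 in L1C. The part of shared reads in the Sp110 values was not tested. These models and Zfp353-ps were examined after their shared sequence and values had been seen.

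Zfp353-ps, annotated as a pseudogene and the main source of the words that Zfp352 shares (6.29% of its exonic words), was also low before the 2-cell stage. Its mean was 22.2 ± 3.79 FPKM (SD, n = 3) in control E2C and 17.7 ± 2.35 (n = 3) in knockout E2C, a difference of -0.31 ± 0.16 that was not called (limma, adjusted p = 0.253). In L2C it was 5.56 ± 0.16 (n = 2) in controls and 39.1 ± 4.06 (n = 3) in knockout embryos, a rise of 2.61 ± 0.13 (adjusted p = 4.83e-05). In controls it fell from E2C to L2C by 1.81 ± 0.16 on the log2 scale (adjusted p = 2.28e-06), the direction seen for Zfp352.

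The step from L1C to E2C raised the 3 embryonic genes in both genotypes. Zfp352 rose by 5.76 ± 0.29 in controls and 4.31 ± 0.26 in knockout embryos, Tmem92 by 3.84 ± 0.38 and 3.36 ± 0.34, and Spz1 by 2.92 ± 0.27 and 2.60 ± 0.24 (limma, log2 scale, largest adjusted p = 1.88e-05). They passed the filter through E2C, where they were high, so the number of them called is not evidence of its own. Of all genes tested, 17.6% were called higher and 31.3% lower at this step in controls, and 16.8% and 30.8% in knockout embryos. From E2C to L2C the percentages were 30.7% and 23.9% in controls and 29.3% and 19.8% in knockout embryos, and neither Arg2 nor Sp110 was called in either genotype.

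In L2C, 3 of the 5 genes (Zfp352, Tmem92 and Arg2) were called higher and none lower. All 5 passed the filter, and the background was large: 38.5% of all genes tested were called, 19.0% higher and 19.5% lower, and 31.6% had all knockout libraries above all controls. Other measures moved with the genotype at this stage. The 8 oocyte markers, all of them at 1 FPKM or more by group mean, summed to 487 to 511 FPKM in the control L2C libraries and 800 to 927 FPKM in the knockout libraries. The 6 markers of later embryonic lineages, 3 of them at 1 FPKM or more by mean in each group, summed to 48.9 to 51.3 FPKM in controls and 25.5 to 29.4 FPKM in knockout libraries. Whether these embryos were at the same point of development was not tested. In these bulk samples, fewer cells expressing a gene and less RNA per cell cannot be told apart.

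A list of 40 other genes known from the 2-cell stage, of which 38 were in the table, was set beside the 5 genes. In E2C 1 of 36 tested rose and 6 fell, where 4.25% of all genes were called higher and 5.87% lower, with a median difference of -0.81 against 0.03 over all genes. Duxf3, the annotation's name for the homeobox activator Dux, rose from 4.86 ± 1.35 to 23.0 ± 4.19 FPKM (SD, n = 3 and 3; 2.05, limma, adjusted p = 0.00179). Fbxo15, an F-box gene, fell most on the log2(FPKM + 1) scale, from 15.9 ± 1.78 to 1.87 ± 0.57 FPKM (-2.57, adjusted p = 0.000435). That scale understates low genes, and by the ratio of means Pramel7 fell more, from 5.95 ± 0.49 to 0.225 ± 0.15 FPKM (-2.51, adjusted p = 0.000549). Fbxo15 was already lower in knockout FGO, MII and L1C (limma, adjusted p = 0.0246, 0.00491 and 0.00304). Its control and knockout means were 2.61 and 0.802 FPKM in FGO, 3.13 and 1.096 in MII, and 3.43 and 0.555 in L1C. In E2C without knockout replicate 2, 1 gene of the list rose and 3 fell, with a median of -0.38. In a fit of all 26 libraries that shares 1 spread over the stages, 1 rose and 23 fell of 37 tested, and in that fit 14.1% and 14.9% of all genes were called higher and lower.

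In L2C 23 of 37 genes of this list rose and 8 fell, against 19.0% higher and 19.5% lower over all genes, with a median difference of 1.16 against 0.03 over all genes. Eif4a3l1, a 2-cell copy of an RNA helicase gene, rose most, from 1.91 ± 0.11 (SD, n = 2) to 30.4 ± 6.66 FPKM (n = 3; 3.41, limma, adjusted p = 5.21e-05). Pramel7 fell most, from 81.3 ± 15.4 to 12.0 ± 6.25 FPKM (-2.75, adjusted p = 0.000627). Of the 36 genes tested at both stages, 20 (55.6%) had a difference below 0 in E2C and above 0 in L2C, as did 21.5% of all 10706 genes tested at both. Among the 5 genes these were Zfp352, Tmem92, Spz1 and Sp110, the last 2 with L2C differences of 0.02 and 0.09. Without E2C knockout replicate 2 the count was 17 of 36, and 21.5% of all genes. Many of these genes belong to families of near-identical copies, between which reads may have been split.

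**Figure D4:**
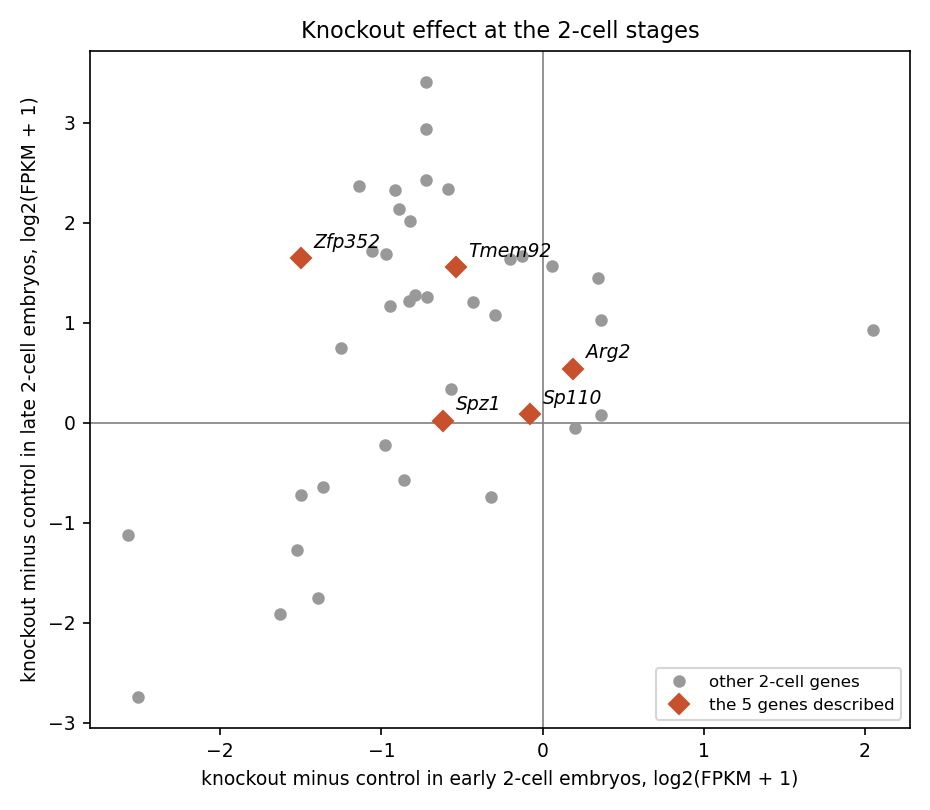
Knockout minus control differences of log2(FPKM + 1) in early 2-cell (horizontal axis) and late 2-cell embryos (vertical axis), with red diamonds for the 5 genes and grey points for the 36 other 2-cell genes tested at both stages. Of the grey points, 20 lie in the upper left part of the plot with Zfp352, Tmem92, Spz1 and Sp110, the last 2 close to the horizontal line at 0; most single differences in E2C were not called.

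Genes described as activators of 2-cell transcription were also measured. In E2C, with the same 4.25% higher and 5.87% lower over all genes, 2 of 14 rose and 4 fell (median -0.20, against 0.03), with Duxf3 rising most. Obox3, a homeobox gene of the Obox family, fell most on the log2(FPKM + 1) scale, from 15.1 ± 2.26 to 3.06 ± 2.705 FPKM (SD, n = 3 and 3, limma difference -2.33, adjusted p = 0.036). The Obox3 call was lost without any one of the controls (adjusted p = 0.117, 0.0802 and 0.087) and under TPM (0.0715), a pseudocount of 0.1 (0.102), no filter (0.178) and no trend (0.061), and its value without knockout replicate 2 was -1.54 (0.0088). By the ratio of means Dppa4, a chromatin protein gene, was lower still, at 8.65 ± 2.12 FPKM in controls and 1.55 ± 0.64 in knockout libraries (n = 3 and 3). Dppa4 was already lower in knockout FGO, MII and L1C (limma, -1.62, -1.53 and -1.37, adjusted p = 0.00277, 0.0122 and 0.00269). In L2C 6 rose and 3 fell (median 0.11), against 19.0% higher and 19.5% lower over all genes (median 0.03). Zscan4c, a 2-cell zinc finger gene also on the list above, had 4.47 ± 0.02 FPKM in controls (n = 2) and 27.1 ± 6.81 in knockout embryos (n = 3, limma difference 2.33, adjusted p = 0.000242). From E2C to L2C its mean fell from 50.1 to 4.47 FPKM in controls, and was 28.2 and 27.1 in knockout embryos (limma step 0.04, adjusted p = 0.934). Dppa4 was lower in knockout L2C, at 21.0 ± 3.03 FPKM against 73.0 ± 8.03 in controls (-1.76, adjusted p = 0.000178).

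Among 21 repressors of 2-cell genes, 1 of 19 tested rose in E2C and none fell, against 4.25% higher and 5.87% lower over all genes. That gene was Lin28a, an RNA-binding protein gene (26.2 ± 5.14 to 40.7 ± 2.14 FPKM, SD, n = 3 and 3; 0.63, limma, adjusted p = 0.035), and it was not called without control replicate 1 or 2 or any one of the knockout libraries (adjusted p = 0.0615 to 0.125), nor with the replicate block (0.0519), without the trend (0.0754) or without the filter (0.118). In L2C 2 of 20 rose and 4 fell, shares near or below the 19.0% and 19.5% over all genes. Uhrf1, needed to maintain DNA methylation, had 32.7 ± 0.22 FPKM in controls (n = 2) and 67.2 ± 7.52 in knockout embryos (n = 3, limma difference 1.01, adjusted p = 0.000585). Its E2C means were higher, at 109 FPKM in controls and 131 in knockout embryos. Mga, a subunit of a variant Polycomb complex, was lower in the knockout, at 24.9 ± 0.51 FPKM against 43.9 ± 0.83 (-0.79, adjusted p = 0.000857). The difference was about as large for L3mbtl2 of the same kind of complex (-0.79, adjusted p = 0.0109).

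Relatives of the 5 genes were also listed, with Tmem91 and Tmem93 put beside Tmem92 by name only. Of the 9 found, 1 of 7 tested fell in E2C and 2 of 6 fell in L2C, and none of those tested rose at either stage. Of all genes, 5.87% and 19.5% were called lower at these stages. Zfp353 was listed without the ending of Zfp353-ps, so Zfp353-ps was counted neither here nor among the other 2-cell genes. As given above, Zfp353-ps rose in L2C (2.61, limma, adjusted p = 4.83e-05) and was not called in E2C (-0.31, adjusted p = 0.253). In E2C the gene called was Zfp42, a zinc finger gene (2.65 ± 0.80 to 0.398 ± 0.35 FPKM, SD, n = 3 and 3, limma difference -1.39, adjusted p = 0.021). It was not called without control replicate 1 or 3 or knockout replicate 2 (adjusted p = 0.0781, 0.0609 and 0.0627), or without the filter (0.105). In L2C Arg1, the cytosolic arginase, went opposite to Arg2: it fell from 12.3 ± 5.57 (n = 2) to 1.58 ± 0.53 FPKM (n = 3; -2.32, adjusted p = 0.000962). Among 25 genes of arginine and polyamine metabolism, 2 of 18 tested fell in E2C and none rose (5.87% lower and 4.25% higher over all genes). Sms, spermine synthase, fell most (67.7 ± 3.88 to 41.9 ± 4.42 FPKM, limma difference -0.68, adjusted p = 0.0127, but 0.0621 without control replicate 1 and 0.0598 without the filter). Sms was already lower in knockout FGO, MII and L1C (limma, -0.55, -0.65 and -0.78, adjusted p = 0.00968, 0.00326 and 0.00306). In L2C 2 of 17 rose and 7 fell, against 19.0% and 19.5% of all genes. Of those called, Arg1 was furthest below control and Slc7a2, an arginine transporter, furthest above it. Slc7a2 had 11.4 ± 0.26 FPKM in controls (n = 2) and 24.5 ± 8.89 in knockout embryos (n = 3, limma difference 0.99, adjusted p = 0.0138). It was not called without either control (0.072 and 0.0639) or without the filter (0.0953). In E2C without knockout replicate 2, chosen after its values were seen, 2 of 14 activators rose and 3 fell, 0 of 19 repressors and 0 of 7 relatives were called, and 1 of 18 metabolic genes fell, when 1.55% and 3.15% of all genes were called higher and lower.

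Likeness of pattern was described by Pearson's r of log2(FPKM + 1) over the 26 early libraries among 9859 genes, which share stage and genotype and are therefore not independent. Zfp352 was most like Pramef25 (r = 0.997), Kdm4dl (0.994) and Psme4 (0.992). A high r did not always go with a knockout effect of like size, since r does not depend on the size of a change. Differences in E2C and L2C were -0.79 and 1.28 for Pramef25, -0.79 and 0.94 for Kdm4dl, and -0.16 and 0.13 for Psme4. None of the E2C differences was called (limma, adjusted p = 0.0579, 0.216 and 0.363). In L2C those of Pramef25 and Kdm4dl were called and that of Psme4 was not. Spz1 was most like Hexim1 (0.992), Psme4 (0.990) and AF067063 (0.989), and Tmem92 was most like Pramef25 (0.989), AF067061 (0.986) and AA623943 (0.986). For Arg2 the nearest genes were Ckap2 (0.982), Clcc1 (0.977) and Ncapg (0.976). Sp110 had no close match, with Rell1 (0.808), Haspin (0.778) and Edn1 (0.761) nearest. Between the 5 genes, r was 0.986 for Zfp352 and Tmem92, 0.979 for Zfp352 and Spz1, 0.973 for Spz1 and Tmem92, and 0.396 for Arg2 and Sp110.

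At embryonic day 6.5 the 3 embryonic genes were nearly all listed at 0. Zfp352, Spz1 and Tmem92 were each at 0 in 10 of 11 libraries, with highest values of 0.0250, 0.0875 and 0.0994 FPKM. Arg2 lay between 0.0454 and 1.63 FPKM, with 3 libraries at 1 FPKM or more, and Sp110 between 0 and 0.855 FPKM. These poly(A) libraries were normalized in a table of their own, and no test was made against the early stages.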

How the data were processed

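The authors deposited FPKM per gene and library in 1 table for the 26 total RNA libraries and 1 for the 11 poly(A) libraries. The submitters' processing notes name Trim Galore 0.6.6, STAR 2.7.9, StringTie 2.1.7 and mm10, without role or order. The annotation, the use of strand and any filters are not given in the sources used here. In the authors' poly(A) table, 1 gene of 1 control epiblast library was listed below 0, so that deposited column was recorded as another unit than FPKM, and after the value was set to 0 it was used as FPKM. Every column matched 1 sample (0 left over). Depth per library is unknown.

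Values were analysed as log2(FPKM + 1), which understates the change of low genes. A gene was tested when 2 or more libraries of the fit held 1 FPKM or more, using limma 3.58.1 in R 4.3.3 (eBayes with an intensity trend), fitted on the stages compared, with two-sided Benjamini-Hochberg adjusted p-values over all genes and a threshold of 0.05. Each stage was fitted alone because E2C libraries varied most: the median within-group SD of log2 values was 0.174 and 0.200 in E2C against 0.0668 to 0.145 elsewhere. "Called", "rose" and "fell" refer to this threshold. Between genotypes, "rose" and "fell" mean knockout above or below control at the same stage, and not a change over time. Differences between stages were interaction contrasts.

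The genes described and the lists were chosen with earlier results of these data known. Named were the 5 genes, Bap1, for each of the 5 the 3 genes with the highest Pearson r, and, for E2C and L2C, the gene of each list that rose and that fell most among those called. Predicted and clone-named models were left out of the likeness search. Vti1b, Zfp353-ps, Gm16026, Gm15753 and C130026I21Rik, and Pramel7 and Dppa4 in E2C and L3mbtl2 in L2C, were added after seeing the annotation and values. Shared sequence was counted as words of 50 bases of GENCODE M21 transcripts. The scripts were tested on simulated data. Alternatives were a pseudocount of 0.1, no filter, a mean of at least 1 FPKM, TPM, median centring, 1 fit of all 26 libraries, no trend, a replicate block, and leaving out each replicate. Python 3.11.15, pandas 2.3.3 and matplotlib 3.10.9 made tables and plots.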

Additional observations from a re-analysis of the deposited data

Results flagged for a closer look

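The knockout effect on Zfp352 differed between late and early 2-cell embryos by 3.15 on the log2 scale in the interaction test (limma, adjusted p = 0.0005). All 3 knockout libraries were below the 3 controls in E2C, and all 3 were above both controls in L2C. For Tmem92 the same difference was 2.09 (adjusted p = 0.0148). Its groups overlapped in E2C, and its 3 knockout libraries were above both controls in L2C.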

How the results depend on the processing

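Over 48 results of the 5 genes and 699 alternative values, 638 kept direction and side of the threshold, 27 lost a call, 6 gained one and 28 changed sign, none of the last called in either setting. Over 27 differences of the other named genes and 361 alternative values, 42 lost a call, 2 gained one and 0 changed sign. Causes were not tested except where fewer libraries entered. Without the filter, calls were lost for Sp110 in FGO (-0.52) and L1C (-0.41), Zfp352 in E2C (-1.50), Arg2 in L2C (0.54), Zfp352 from E2C to L2C in controls (-0.82) and the Tmem92 interaction (2.09), at adjusted p = 0.0616, 0.069, 0.11, 0.0867, 0.0996 and 0.0736. In 1 fit of all 26 libraries Sp110 in L1C lost its call (-0.41, adjusted p = 0.0723), and Spz1 in E2C (-0.62, 0.0186) and the Zfp352 effect in E2C minus L1C (-1.45, 0.00894) gained one. Without trend, Sp110 in L1C (-0.41) and Arg2 in L2C (0.54) lost theirs. Whether replicate numbers pair the samples is not known, since the labels name no shared source. Same-numbered deviations correlated at 0.0905, 0.0676 and -0.135 in E2C, 0.122 and 0.128 in FGO, -0.129 and 0.188 in MII, 0.114 and 0.0732 in L1C, and 0.067 and -0.0007 in L2C. These values cannot decide it, because deviations were taken within groups, where those of 2 control libraries mirror each other. With the replicate block Sp110 was at -0.52 in FGO (adjusted p = 0.106), -0.50 in MII (called, 0.00763) and -0.54 from L1C to E2C in knockout embryos (0.0555), and Spz1 rose by 0.84 in control L2C (0.0924). Signs changed under the block for Tmem92 in MII (0.091) and control L2C against E2C (-0.41), Arg2 in L1C (0.042) and Sp110 in control L2C against E2C (0.20). Under TPM they changed for Arg2 in L1C (0.045), Sp110 in E2C (0.032), Spz1 in E2C minus L1C (0.12, and 0.59 at a pseudocount of 0.1), Tmem92 in control L2C against E2C (-0.13) and Sp110 in knockout L2C against E2C (-0.013). Under median centring they changed for Tmem92 in MII (0.00048) and control L2C against E2C (-0.19), and for Arg2 (-0.10) and Sp110 (-0.15) in knockout L2C against E2C, and Sp110 in knockout E2C against L1C was -0.21. TPM moved the median of all genes in L2C from 0.03 to 0.15, and centring moved it from -0.17 to 0.06 for control E2C against L1C and from 0.05 to -0.18 for control L2C against E2C.

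Leaving out 1 library gave, for knockout against control, Sp110 from -0.63 to -0.40 in FGO, -0.50 to -0.29 in MII, -0.48 to -0.38 in L1C, -0.18 to 0.071 in E2C and -0.038 to 0.20 in L2C. It gave Zfp352 from -1.74 to -1.11 in E2C, Spz1 from -0.93 to -0.44 in E2C and -0.11 to 0.16 in L2C, Tmem92 from -0.37 to 0.27 in MII, and Arg2 from -0.043 to 0.042 in L1C, -0.026 to 0.37 in E2C and 0.42 to 0.64 in L2C. The effect in L2C minus E2C ran from 0.46 to 0.95 for Spz1 and 1.64 to 2.45 for Tmem92, and that in E2C minus L1C from -0.025 to 0.38 for Arg2. For control L2C against E2C the ranges were -0.88 to -0.75 for Zfp352, 0.89 to 1.03 for Spz1 and -0.18 to 0.28 for Tmem92, and in knockout embryos -0.0051 to 0.40 for Arg2 and -0.017 to 0.24 for Sp110. The calls of Zfp352 and Tmem92 in L2C held in all 5 of these settings. Counts of genes called over all alternatives ran from 15 to 1251 in FGO (964 in the main analysis), 157 to 1598 in MII (1364), 238 to 2193 in L1C (1657), 165 to 4407 in E2C (1193), 2878 to 6419 in L2C (4893), 1265 to 4622 for L2C minus E2C (2346) and 1 to 710 for E2C minus L1C (43), and for the stage steps in knockout embryos from 3472 to 7205 (6082) and 3890 to 8521 (6898). The number of libraries limits the precision.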
